A study of Homo sapiens with 42 samples.

Results

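The 92-1 line, an established human uveal melanoma line, contributed 6 of the 42 ATAC-seq samples of the series, and these 6 were taken as the samples whose titles begin with the name of the line. All 6 were labelled wild type for genotype and were collected at 4 h. They formed 2 groups of 3 biological replicates, 1 treated with FHT-1015 and 1 with DMSO, the solvent, as the negative control. FHT-1015 is a dual inhibitor of SMARCA4 and SMARCA2, and its dose was not stated. The comparison asks which accessible sites of uveal melanoma cells depend on these ATPases within hours. How the replicate cultures were separated is not stated, so p-values measure the spread between these samples, and 3 samples against 3 cannot give an exact two-sided permutation p below 0.1.

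SMARCA4 (BRG1) and SMARCA2 (BRM) are the alternative motors of the BAF complexes, which use ATP to slide or evict nucleosomes. In ATAC-seq a transposase cuts DNA that nucleosomes leave open, so that peaks mark promoters, enhancers and other open sites. Enhancers are largely specific to a cell type and are known to need continuous BAF activity, whereas the GC-rich promoters of broadly active genes are held open by many factors. In melanocytic cells SOX10 and MITF direct the pigment cell programme, and both are known to work with BAF.

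Each sample had its own peak list, with a p-value for every summit, and the lists differed strongly in depth. The DMSO lists held 355876, 431956 and 356965 peaks and the FHT-1015 lists 286272, 185651 and 179390, in order of replicate. The background under the peaks, recovered from the deposited fold and p-value and used as a measure of relative depth, was 0.430, 0.123 and 0.0839 reads in DMSO and 0.299, 0.0346 and 0.0341 in FHT-1015. By this measure FHT-1015 replicate 1 was deeper than DMSO replicates 2 and 3, while FHT-1015 replicates 2 and 3 were the shallowest of the 6. Pileups of 2 reads made up 93.8% and 94.9% of the peaks of those shallow lists. The strongest peaks of every list included sites whose local background was more than 20 times the floor of the list: between 248 and 496 of the 1000 strongest per list. The 6 regions of best mean rank over all lists, near LOC124903233, CNTNAP2 and within SPTLC3, PDZRN4, VPS13B and RBFOX2, were all of this kind, at 56.6 to 629 times the floor. Results are therefore given with and without such high-background sites.

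The label of the line was set against its markers. In the DMSO lists 0, 0 and 1 of the 10000 strongest summits lay in the loci of SOX10 and MITF, a locus being the gene with 100 kb on each side, against 4, 4 and 3 in A375, a cutaneous melanoma line. The loci of the pigment cell genes TYR, PMEL, MLANA and DCT held 7, 6 and 10 summits in 92-1, within the range of 3 to 13 over the DMSO lists of the other lines. Markers of other cell types were mixed. Skeletal muscle loci held 4, 5 and 5 summits in 92-1 against 25, 20 and 17 in the rhabdomyosarcoma line RD. Myeloid loci held 8, 7 and 5 against 9, 12 and 9 in the leukaemia line MV411, and prostate loci 1, 7 and 4 against 7, 6 and 8 in the prostate line 22RV1. Intestine loci held 8, 8 and 8 against 5, 8 and 8 in the colorectal line HCT116. Epithelial loci held 8, 5 and 7 against 19, 10 and 19 in HCT116 and 5, 4 and 4 in MV411. Strong peaks at these loci thus did not set 92-1 apart from the other lines, and a peak list gives no expression level, so the line is called by its label only.

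The clearest difference between treatments lay away from gene starts. Regions were windows of 500 bp around the summits of the 10000 strongest peaks per list, 31239 in all. The regions shared by any pair of DMSO lists were then looked up, at any rank, in the third DMSO list and in each FHT-1015 list. Of regions farther than 1 kb from a gene start, the third DMSO list missed 0.121%, 0.432% and 2.16%, depending on which list was held out. FHT-1015 replicate 1 missed 23.8%, 23.6% and 24.1% of the same regions, although it was deeper than 2 of the DMSO lists. The shallow FHT-1015 replicates missed 40.6% to 43.4% and 44.9% to 47.5%. At gene starts the picture differed: the third DMSO list missed 0% to 1.65% of regions and FHT-1015 replicate 1 missed 0.955%, 0.823% and 0.827%. Regions at gene starts were thus held by the deep FHT-1015 list about as completely as by DMSO lists, and only the 2 shallow FHT-1015 lists missed more of them, 12.6% to 13.6% and 21.6% to 22.8%. For those 2 lists, fewer reads and less accessible chromatin cannot be told apart from a missing peak alone. The comparison at adequate depth thus rests on 1 FHT-1015 library.

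**Figure D1:**
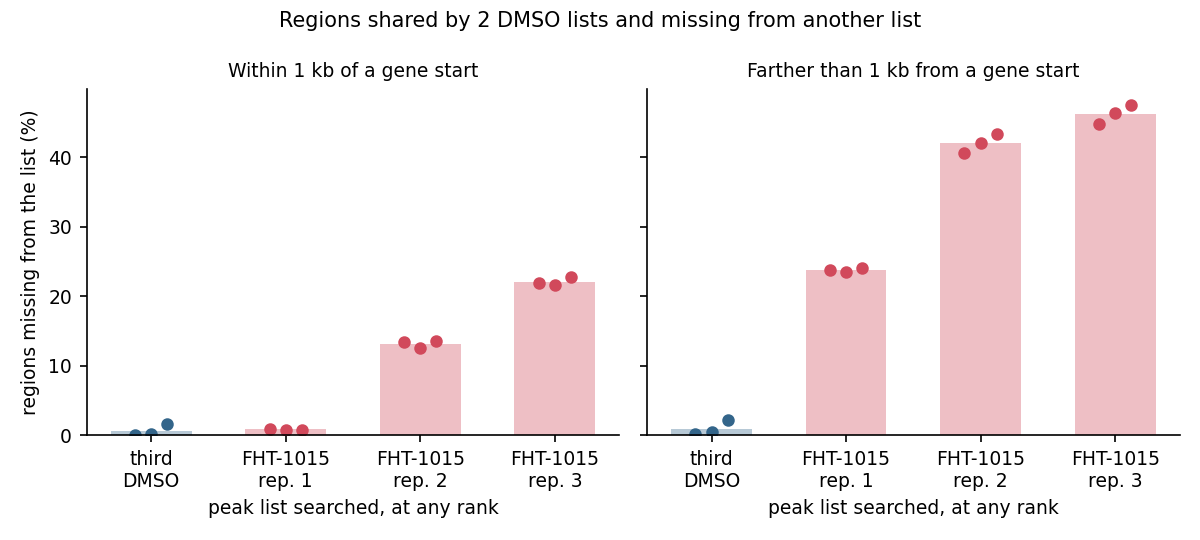
Percentage of regions shared by 2 DMSO top lists that were missing at any rank from the third DMSO list (blue) and from each FHT-1015 list (red), for regions within 1 kb of a gene start (left) and farther away (right). Points are the 3 ways of choosing the 2 DMSO lists and bars their mean. In the deep FHT-1015 replicate 1, under 1% of gene-start regions but 23.6% to 24.1% of the others were missing.

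Of the 4139 regions in all 3 DMSO top lists, 1528 lay at gene starts, 1086 inside genes and 1525 outside genes. In total 1238 regions (29.9%) were in none of the 3 FHT-1015 top lists, 536 (12.9%) were absent from FHT-1015 replicate 1 at any rank, and 213 (5.15%) were absent from all 3 FHT-1015 lists at any rank. Loss from the top lists took 62 of the gene-start regions (4.06%), 494 of those inside genes (45.5%) and 682 of those outside genes (44.7%). Absence from FHT-1015 replicate 1 at any rank was 0.589%, 19.4% and 20.7% in the same order. Absence from every list took 2 gene-start regions, 83 inside genes and 128 outside. With high-background sites left out the contrast widened, to 4.17% of 1488 regions at gene starts against 52.5% of 2237 elsewhere. Of the 374 regions away from gene starts that had high background, 2 were lost from the top lists. A region was put in this class if any top list, FHT-1015 lists included, had a high-background summit there. Regions marked through an FHT-1015 top list could not count as lost. The wider contrast and this low count therefore follow in part from how the class was defined.

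The loss grew over short distances and then levelled off. It was 23.4% of the 137 regions between 1000 and 5000 bp from a gene start, 36.5% of the 334 between 5000 and 20000 bp, and 44.4% of the 426 between 20000 and 50000 bp. Beyond 200000 bp it was 50.4% of 842 regions. The contrast by place was present at every strength in DMSO. Among the strongest regions without high background, with a mean DMSO rank up to 1000, 2 of 166 at gene starts were lost from the top lists, 20 of 62 inside genes and 26 of 107 outside genes. Among the weakest, with a mean rank between 5000 and 10000, the counts were 26 of 335, 195 of 300 and 215 of 348. With high-background sites kept in, the counts of the strongest class were 2 of 188, 20 of 173 and 27 of 310. Of the 1236 lost from the top lists without high background, 762 still had a peak in FHT-1015 replicate 1, at a median rank of 39888; a rank beyond 10000 there follows from how these regions were chosen.

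**Figure D2:**
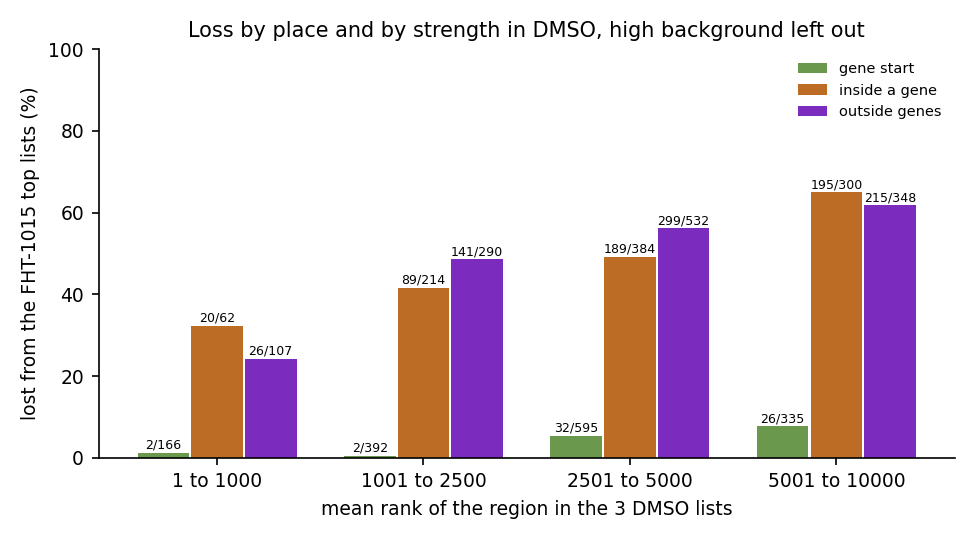
Percentage of DMSO-shared regions absent from all 3 FHT-1015 top-10000 lists, by place and by mean DMSO rank. Sites with high background in any top list, FHT-1015 lists included, were left out. Numbers over the bars are lost regions over all regions of the class. Gene-start regions stay under 8% in every class of rank, while regions elsewhere reach 65.0% inside genes in the weakest class.

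The best-ranked regions absent from every FHT-1015 list lay in or near single genes. One of them lay 1.06 kb outside MPHOSPH6, a factor of RNA decay, at chr16:82146854-82147353 (DMSO ranks 413, 1560 and 1014), and another inside ESRRG, an orphan nuclear receptor, at chr1:216823679-216824178 (1943, 1158 and 1072). A second region in ESRRG, at chr1:216910452-216910951, ranked 571, 383 and 643 in DMSO and 11525 in FHT-1015 replicate 1, with no peak in the other 2. The lost regions in CPQ and C8orf34, on chromosome 8, had mean DMSO ranks of 1193 and 1444. A lost region near FAM78B ranked 366, 930 and 728 and had a background of 21.5 to 23.4 times the floor, just over the limit of 20. None of these lost regions lay within 1 kb of a gene start, and none had a peak of any rank in FHT-1015 replicates 2 and 3.

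The lost regions were spread over many genes. The 213 regions had 201 nearest genes, of which SLC39A10, a zinc importer, had the most with 3 of its 3 DMSO-shared regions. CDC73, a subunit of the PAF1 elongation complex, TRAPPC9, CRIM1, TMEM72, CNBD1, MSI2, TENM4, GRM7, RNF144A and TNS3 had 2 each. TENM2, a large adhesion receptor of neurons, had 16 DMSO-shared regions, of which 1 was absent from every FHT-1015 list and 9 from the top lists. From the top lists GPC5 and ZFAT each lost 7 of 10, CDC73 and TRPS1 6 of 11, and SOX11, a transcription factor of neural crest and brain, 4 of 8. One of the SOX11 regions, at chr2:6113723-6114222 and 412587 bp from that gene, was the strongest of the regions lost from the top lists, with DMSO ranks of 396, 463 and 515 and a single FHT-1015 rank of 137112 in replicate 3.

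Equal numbers of the strongest peaks were compared next, as the share of summits within 1 kb of a gene start. Among the 1000 strongest the share was 37.6%, 31.0% and 23.6% in DMSO and 53.8%, 32.9% and 23.8% in FHT-1015. The groups overlapped, and the difference of means, 6.10 percentage points, had an exact permutation p of 0.6. Wilson 95% intervals of the single shares, which cover counting error only, ran from 21.1% to 26.3% for the lowest and from 50.7% to 56.9% for the highest. With high-background sites left out, the DMSO shares were 45.4%, 44.4% and 38.3% (mean 42.7 ± 3.84, SD, n = 3) and the FHT-1015 shares 76.1%, 60.6% and 50.1% (62.3 ± 13.1, SD, n = 3). Every FHT-1015 list then lay above every DMSO list, by 19.6 percentage points on average (exact permutation p = 0.1, the smallest possible). Of the 8 list lengths tried without high-background sites, 1000 was the only one without overlap: the difference was 16.5 percentage points with 500 peaks (exact permutation p = 0.2) and 15.7 with 2000 (exact permutation p = 0.3), where FHT-1015 replicate 3 lay among the DMSO lists. The share of summits more than 50 kb from a gene start was 36.8%, 38.1% and 43.9% in DMSO and 13.1%, 20.6% and 25.8% in FHT-1015, again without overlap (exact permutation p = 0.1). The order reversed in longer lists: with 50000 peaks the difference of gene-start shares was -6.28 percentage points, and there only 11521 and 9212 peaks of FHT-1015 replicates 2 and 3 had pileups of 3 reads or more.

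**Figure D3:**
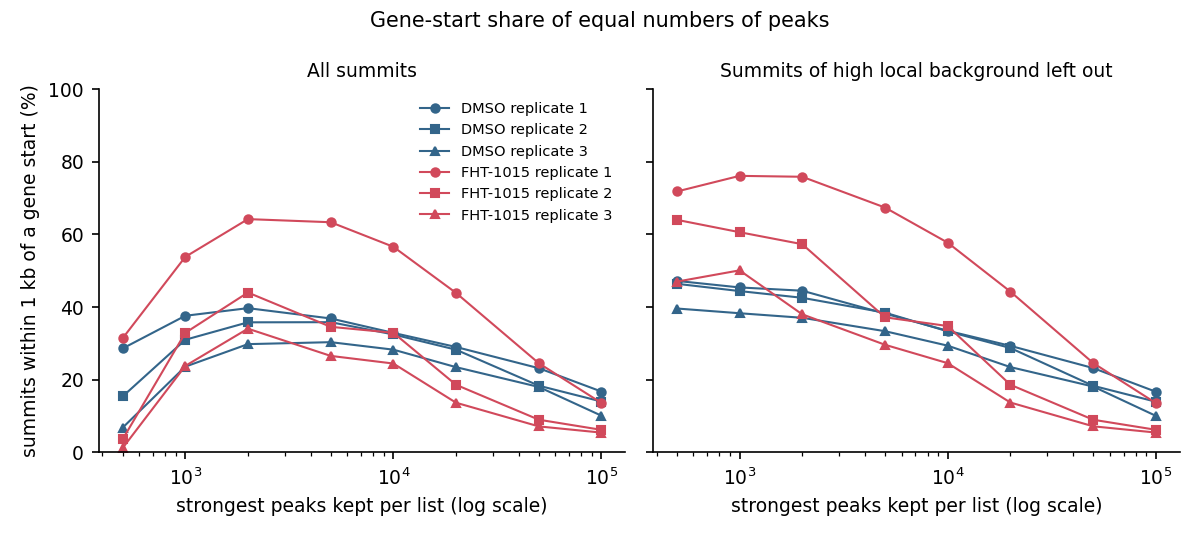
Percentage of summits within 1 kb of a gene start against the number of strongest peaks kept per list (log axis), for all summits (left) and without high-background sites (right). Lines are the 6 lists, DMSO in blue and FHT-1015 in red. Without those sites the 3 FHT-1015 lists lie above the DMSO lists at 1000 peaks and overlap them at the other lengths, and the shallow FHT-1015 lists fall below DMSO in long lists.

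The lists were also brought to a common depth. Pileups in 92-1 were mostly even (67.7% to 98.5% of pileups up to 12), and were read as pairs of reads, which the sources do not state and which holds least in the 2 deepest lists. Pairs were drawn down binomially to the background of FHT-1015 replicate 3. Peaks of at least 3 pairs were expected at 4830, 4678 and 3645 sites in DMSO and 2164, 1758 and 1124 in FHT-1015, without overlap (exact permutation p = 0.1). The gene-start share of these peaks was 37.8%, 39.3% and 36.2% in DMSO and 67.5%, 60.9% and 52.3% in FHT-1015 (exact permutation p = 0.1). At this depth the 3 DMSO lists gave nearly the same share. Peaks away from gene starts numbered 3003, 2840 and 2324 in DMSO and 704, 688 and 536 in FHT-1015, a mean of 23.6% of DMSO. Peaks at gene starts numbered 1826, 1837 and 1321 against 1460, 1070 and 588, a mean of 62.6% with overlapping groups. With at least 2 pairs the FHT-1015 means were 47.6% of DMSO away from gene starts and 74.2% at gene starts, both without overlap (exact permutation p = 0.1 for each). These numbers assume that equal background means equal depth; if DMSO is taken to 0.5 of that background, the mean number away from gene starts in FHT-1015 becomes 93.4% of DMSO and that at gene starts 217%. The gene-start share was then 40.8% ± 2.04 in DMSO against 60.2% ± 7.60 in FHT-1015 (SD, n = 3), still without overlap (exact permutation p = 0.1).

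**Figure D4:**
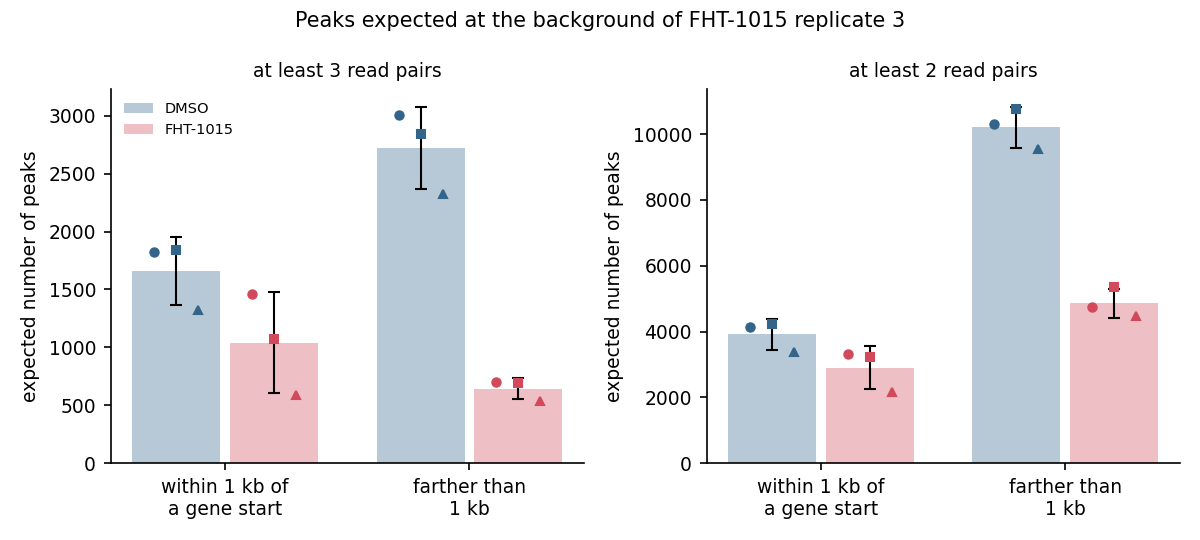
Expected number of peaks after pairs of reads were drawn down to the background of FHT-1015 replicate 3, for peaks of at least 3 pairs (left) and 2 pairs (right), high-background sites left out. Bars are means, error bars SD (n = 3), points single lists. Away from gene starts every FHT-1015 list lies below every DMSO list in both panels.

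Overlap between whole top lists separated the treatments less clearly. The Jaccard index, shared regions over all regions of a pair of lists, was 0.357 to 0.458 between DMSO lists, 0.116 to 0.230 between FHT-1015 lists and 0.129 to 0.337 between treatments. The mean within treatments exceeded that between by 0.0822 (exact permutation p = 0.1). This excess came from the DMSO pairs, with a mean of 0.397. The FHT-1015 pairs had a mean of 0.172, below the mean of 0.2025 between treatments. Without DMSO replicate 1, 2 or 3 it was 0.0223, 0.0233 and 0.0320 (exact permutation p of 0.5, 0.5 and 0.7), and without FHT-1015 replicate 1 it was 0.175. The FHT-1015 lists overlapped each other less than the DMSO lists did, and in the top 10000 of FHT-1015 replicate 3 the last peaks came from 82276 tied pileups of 2 reads.

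Of the DMSO-shared regions, those at gene starts were held in all lists more often than others, 39.2% against 21.1%. In total 1151 of the DMSO-shared regions (27.8%) were in all 6 top lists, which is 68.3% of the 1686 regions shared by the FHT-1015 lists. By place, they were 62.2% of the FHT-1015-shared regions at gene starts, 72.4% inside genes and 78.9% outside, the opposite order. Without high-background sites they were 61.2% at gene starts and 56.2% elsewhere. Of the 1151, 599 were at gene starts, and without high-background sites 570 of 755. Promoter sequences of RefSeq (GRCh38.p14; 250 bases before to 50 after the start, present for 15811 of 19970 protein-coding genes) were set beside them. The next lines show the 200 bases upstream of the start, 5′ to 3′ on the strand of the gene. Shown are the 3 regions of this class with the best DMSO rank whose summit lay within the promoter. High-background sites and a chromosome named with the processing were left out of this choice. Some of the regions left out ranked better. Capitals mark the SP box GGGCGG, the CCAAT box of NF-Y, the ETS motif CCGGAA and the AP-1 motif TGANTCA, on either strand. They are OR2L13, an olfactory receptor gene, at chr1:247936977-247937176 (+), POT1, a telomere-binding protein, at chr7:124929826-124930025 (-), and XPR1, a phosphate exporter, at chr1:180631822-180632021 (+).
OR2L13: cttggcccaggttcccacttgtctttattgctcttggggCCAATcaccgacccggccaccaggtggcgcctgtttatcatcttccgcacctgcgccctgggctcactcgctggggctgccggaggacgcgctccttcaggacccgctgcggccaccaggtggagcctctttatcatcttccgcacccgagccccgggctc
POT1: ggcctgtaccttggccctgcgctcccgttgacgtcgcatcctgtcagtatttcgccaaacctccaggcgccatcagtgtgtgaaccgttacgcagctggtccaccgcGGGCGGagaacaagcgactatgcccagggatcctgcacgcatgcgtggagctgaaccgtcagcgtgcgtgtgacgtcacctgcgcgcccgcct
XPR1: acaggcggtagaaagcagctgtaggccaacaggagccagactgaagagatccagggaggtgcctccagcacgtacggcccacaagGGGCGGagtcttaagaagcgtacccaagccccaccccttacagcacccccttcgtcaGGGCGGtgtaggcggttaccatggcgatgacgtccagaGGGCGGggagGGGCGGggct
The OR2L13 region ranked 142, 298 and 376 in DMSO and 340, 757 and 1160 in FHT-1015. POT1 ranked 203, 301 and 418 against 295, 470 and 706. XPR1, with 4 SP boxes in the stretch shown, ranked 194, 336 and 501 against 283, 469 and 705. All 3 stayed within the strongest 1200 peaks of every list.

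Few gene-start regions were lost from the top lists, 62 in all, and they are shown for contrast. The 3 of best DMSO rank by the same choice were at HTR5A, a serotonin receptor gene, at chr7:155070124-155070323 (+), ATP10B, a lipid flippase, at chr5:160852212-160852411 (-), and FCRLA, an Fc receptor-like protein of B cells, at chr1:161707029-161707228 (+).
HTR5A: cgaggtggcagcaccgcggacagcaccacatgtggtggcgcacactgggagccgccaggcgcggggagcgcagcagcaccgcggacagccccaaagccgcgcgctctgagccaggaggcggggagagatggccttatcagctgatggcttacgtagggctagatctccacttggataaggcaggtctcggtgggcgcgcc
ATP10B: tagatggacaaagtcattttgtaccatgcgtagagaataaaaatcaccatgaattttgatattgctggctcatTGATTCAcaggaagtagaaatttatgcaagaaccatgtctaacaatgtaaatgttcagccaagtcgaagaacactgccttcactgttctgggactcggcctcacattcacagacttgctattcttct
FCRLA: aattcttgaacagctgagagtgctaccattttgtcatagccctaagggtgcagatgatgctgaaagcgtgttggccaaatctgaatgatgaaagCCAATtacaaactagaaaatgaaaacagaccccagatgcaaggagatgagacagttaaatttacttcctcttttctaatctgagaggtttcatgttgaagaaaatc
The HTR5A region ranked 791, 942 and 1203 in DMSO and 20648 in FHT-1015 replicate 1, with no peak in the other 2. ATP10B, whose stretch holds an AP-1 motif and no SP box, ranked 968, 2022 and 2082 against 15932, 124161 and no peak. FCRLA ranked 1074, 5400 and 1135 in DMSO and had no peak in any FHT-1015 list. GC content of the printed bases was 39% for ATP10B and FCRLA and 68% for HTR5A.

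The motifs were searched over the whole 300-base promoters, on both strands, and a promoter counted once if it held at least 1 match. Only in the printed stretches were matches counted singly, with overlap allowed. The CCAAT box was in 36.3% of all 15811 promoters, in 55.8% of the 453 promoters whose region was in all 6 top lists, and in 25.5% (12) of the 47 lost from the top lists. The SP box was in 58.5%, 78.1% and 55.3% (26) in the same order, and the ETS motif in 22.8%, 33.1% and 17.0% (8). The AP-1 motif was in 5.76% of all promoters, 1.32% (6) of those in all lists and 10.6% (5) of those lost. The CRE TGACGTCA was in 2.59% of all promoters, 4.86% (22) of those in all lists and none of the 47 lost. The held and lost promoters are both part of the 1195 promoters of DMSO-shared regions. Of these 1195, the CCAAT box was in 52.4%, the SP box in 75.9% and the ETS motif in 33.0%, near the shares of the held set. The AP-1 motif was in 3.01% of them and the CRE in 3.35%. The MITF E-box CACGTG differed little, at 8.87%, 7.95% and 8.51%. The SOX motifs AACAAT or ACAAAG were in 18.6% of all promoters, 12.6% of those held and 12.8% of those lost. The TFAP2 motif GCCNNNGGC was in 28.3% of all promoters, in 136 of the 453 held and in 14 of the 47 lost. The TEAD motif GGAATG was in 11.7%, 7.51% and 8.51%. These shares are descriptions without a test, and with 47 promoters each promoter moves the share of the lost set by over 2 percentage points. Sequence of the distal regions was not used here.

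Gained regions were fewer than lost ones. Most of those gained in the top lists were at gene starts, as were most regions shared by the FHT-1015 lists. Of the 1686 regions in all 3 FHT-1015 top lists, 1 (0.0593%) was in no DMSO list at any rank; the DMSO lists were the longer ones, which leaves fewer regions that can be absent from all of them. It lay in DYNC2H1, a cilium motor gene, at chr11:103405927-103406426, ranked 5712, 536 and 451, and had a background of 128 to 861 times the floor. Absence from the DMSO top lists alone gave 103 regions (6.11%), of which 75 were at gene starts, 13 inside and 15 outside genes. Of all 1686 regions, 963 (57.1%) were at gene starts. Without high-background sites it was 75 of 102 gained regions and 932 of all 1261, so gene starts were about as common in both. The choice of sequences from the 103 regions again left out the same chromosome. The 3 of best FHT-1015 rank whose summit lay in a promoter were at ATL2, a protein that shapes the endoplasmic reticulum, at chr2:38377274-38377473 (-), NAP1L4, a histone chaperone, at chr11:2992330-2992529 (-), and ATP6V1D, a subunit of the proton pump of lysosomes, at chr14:67359805-67360004 (-).
ATL2: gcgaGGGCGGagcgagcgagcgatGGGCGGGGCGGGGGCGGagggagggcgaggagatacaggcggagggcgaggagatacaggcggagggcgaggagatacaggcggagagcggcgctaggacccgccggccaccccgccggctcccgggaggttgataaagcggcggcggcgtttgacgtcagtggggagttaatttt
NAP1L4: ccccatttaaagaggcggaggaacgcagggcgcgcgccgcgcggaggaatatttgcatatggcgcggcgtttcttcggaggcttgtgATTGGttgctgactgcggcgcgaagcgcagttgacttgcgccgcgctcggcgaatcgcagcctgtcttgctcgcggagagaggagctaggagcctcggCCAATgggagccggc
ATP6V1D: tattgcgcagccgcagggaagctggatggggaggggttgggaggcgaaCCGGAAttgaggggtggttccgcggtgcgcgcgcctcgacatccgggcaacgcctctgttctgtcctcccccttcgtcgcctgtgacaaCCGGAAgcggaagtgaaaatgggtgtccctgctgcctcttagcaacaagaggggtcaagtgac
The ATL2 region ranked 1772, 555 and 2493 in FHT-1015 and 21058, 15289 and 43194 in DMSO, and its stretch holds 4 SP boxes. NAP1L4, with 2 CCAAT boxes, ranked 3316, 969 and 1198 against 21754, 28701 and 26164. ATP6V1D, with 2 ETS motifs, ranked 2516, 5163 and 1670 against 11577, 17093 and 21569. The SP box was in 83.1% of the 65 promoters of such regions, the CCAAT box in 46.2% and the ETS motif in 33.8%. The 3 sites shown had peaks in every DMSO list at lower rank, and a rank is relative to the other peaks of its list.

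The melanocyte loci held few strong regions. The loci of the 10 transcription factors and 15 pigmentation genes held 39, 35 and 39 of the 10000 strongest summits in DMSO and 40, 39 and 41 in FHT-1015, with overlap (difference 2.33, exact permutation p = 0.3). They contained 12 DMSO-shared regions, 4 at gene starts, 4 inside genes and 4 outside. The 4 at gene starts were at neighbouring genes, HADH, GPR180, PIERCE2 and NUP42, and not at genes of the 2 melanocyte lists. Of the 12, 3 were lost from the top lists, all of them away from gene starts, and 3 were in all 6 top lists. Each is 25%, near the 29.9% lost and 27.8% held of all DMSO-shared regions. One region absent from every FHT-1015 list lay 85436 bp from SOX9, a neural crest factor, at chr17:72211603-72212102, with DMSO ranks of 8479, 8854 and 5241. The start of SOX9 itself ranked 19006, 1378 and 1003 in DMSO and 1756, 4019 and 7198 in FHT-1015. In the locus of IRF4, a melanocyte and lymphocyte factor, a region inside the neighbouring EXOC2 at chr6:487962-488461 ranked 4009, 4539 and 4497 in DMSO and 26103, 117909 and no peak in FHT-1015. In the locus of DCT, an enzyme of melanin synthesis, a region inside GPC6 at chr13:94384456-94384955 ranked 6859, 4052 and 1020 against 44048 and no peak in replicates 2 and 3.

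A region held in all lists lay 13.8 kb outside TYR, the rate-limiting enzyme of melanin synthesis, at chr11:89309346-89309845. It ranked 452, 1501 and 674 in DMSO and 9868, 9987 and 4161 in FHT-1015, so it was lower by rank in each FHT-1015 list than in any DMSO list. A region in RAB38, a melanosome trafficking GTPase, at chr11:87813801-87814300 ranked 749, 294 and 287 against 348, 278 and 261. A region in BRD10 in the MLANA locus ranked 4788, 9264 and 3053 against 3442, 1830 and 7000. In the PAX3 locus, a neural crest factor, a region at chr2:222136044-222136543 ranked 6001, 5566 and 1963 against 6475, none and 72555. The SOX10 locus had no DMSO-shared region. The best summit anywhere in that locus ranked 16283, 23045 and 24908 in DMSO and 12454, 5890 and 6933 in FHT-1015, higher in every FHT-1015 list. No promoter entry gave the start of SOX10, so both ends of the gene were used. The best peak at either end did not follow: it ranked 115932, 30517 and 281171 in DMSO and none, 172714 and 170131 in FHT-1015. The best summit of the MITF locus ranked 12091, 22525 and 6927 against 3804, 8072 and 14251, with overlap. The remaining loci with DMSO-shared regions were those of LEF1, RAB27A and GPNMB, with 1 region each in none of the lost classes. Each of these regions lay at the start of a neighbouring gene. TFAP2A, ZEB2, SNAI2, TBX2, TYRP1, PMEL, OCA2, SLC45A2, SLC24A5, GPR143, TRPM1, MC1R and SLC24A4 had none.

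Of the other gene lists, 5 differed between treatments without overlap. The loci of 35 ribosomal protein genes held 20, 27 and 23 strong summits in DMSO and 66, 62 and 51 in FHT-1015, without overlap (exact permutation p = 0.1). Those of 26 BAF subunit genes held 25, 26 and 29 against 53, 50 and 43, those of 9 AP-1 genes 9, 7 and 4 against 20, 19 and 12, and those of 10 myeloid genes 8, 7 and 5 against 15, 19 and 19, each without overlap and with an exact permutation p of 0.1. Skeletal muscle loci held 4, 5 and 5 against 10, 12 and 7 (exact permutation p = 0.1). For the 7 drivers of uveal melanoma the counts were 7, 7 and 9 against 8, 8 and 9, for YAP and TEAD targets 12, 14 and 20 against 19, 14 and 12, and for MAPK feedback genes 10, 8 and 10 against 11, 12 and 8, all overlapping. The remaining lists (SOX10 or MITF targets and melanoma antigens, epithelial, prostate and intestine) overlapped too, with exact permutation p of 0.2 to 0.6.

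Single genes of these lists showed both kept and lost sites. The start of SMARCA2, itself a target of the compound, ranked 4415, 4591 and 1415 in DMSO and 1106, 9372 and 1280 in FHT-1015. The start of JUN, an AP-1 factor, ranked 3734, 3623 and 4286 against 1479, 6565 and 167127. Of the 2 DMSO-shared regions in the locus of SPRY2, a feedback inhibitor of MAPK signalling, 1 was absent from every FHT-1015 list, while the gene start ranked 2612, 689 and 2345 against 1795, 1161 and 175608. The start of S100A1, a calcium-binding protein, ranked 680, 1173 and 2963 in DMSO and 7602, 144049 and 174610 in FHT-1015, lower in every FHT-1015 list. The only DMSO-shared region in the locus of ACTA1, skeletal muscle actin, was absent from every FHT-1015 list, and that in the locus of SPI1, the myeloid factor PU.1, was in all 6 top lists.

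**Figure D5:**
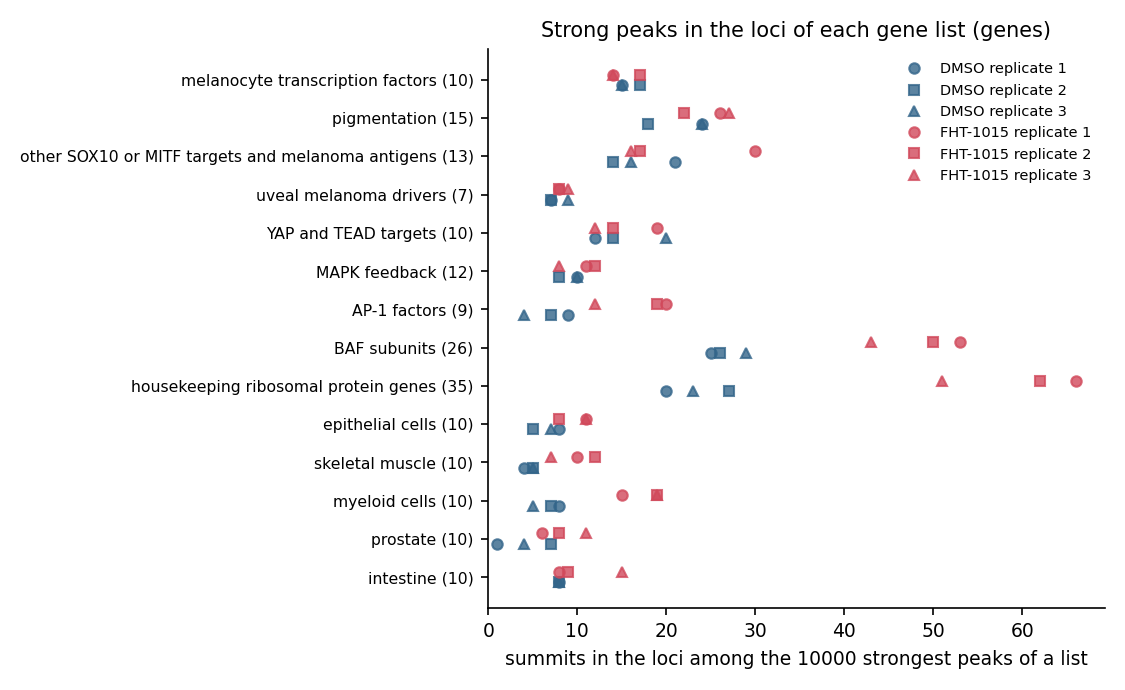
Number of summits among the 10000 strongest peaks of a list that lay in the loci (gene with 100 kb on each side) of each gene list, for the 6 lists of 92-1. The numbers of genes stand in brackets. Ribosomal, BAF, AP-1, muscle and myeloid loci held more summits in every FHT-1015 list than in any DMSO list, and the 2 melanocyte lists overlapped.

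The counts over all loci differed by gene density. Over all 19970 protein-coding loci, 8.35% held more strong summits in every FHT-1015 list than in every DMSO list and 2.72% held fewer. In loci with 9 or more genes the mean count was 0.955 in DMSO and 2.18 in FHT-1015, and 19.8% held more in every FHT-1015 list. In loci with 1 to 2 genes the means were 1.26 and 1.10, and 2.21% held more while 6.36% held fewer. Of the single loci, 8 of 35 ribosomal, 5 of 26 BAF, 4 of 9 AP-1 and 2 of 10 myeloid loci held more in every FHT-1015 list, against 1 of 25 melanocyte loci. Of the skeletal muscle loci it was 0 of 10, although their total differed without overlap. The median locus held 5 genes over all genes, and also 5 in the ribosomal and AP-1 lists. It held 6 in the BAF list, 8 in the myeloid list, 4 in the skeletal muscle list and 3 in the melanocyte lists. The part of gene density in the differences between lists was not tested. Summits away from gene starts also lay in denser surroundings with FHT-1015: 1.78 ± 0.0917 gene starts within 100 kb against 1.14 ± 0.0293 in DMSO (SD, n = 3, no overlap, exact permutation p = 0.1). Chromosome 19, the most gene-dense chromosome, held 0.73%, 1.06% and 1.00% of the 10000 strongest summits in DMSO and 2.84%, 3.69% and 3.12% in FHT-1015. Chromosome 8 held 10.7%, 9.92% and 9.57% against 7.69%, 8.76% and 8.10%. Neither pair of groups overlapped (exact permutation p = 0.1 for each).

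Most of the lost distal regions were not strong peaks in any other line. Of 1174 regions away from gene starts that were lost from the top lists, without high background, 722 (61.5%) were in the shared DMSO top 50000 of none of the 6 other lines. Over all 2237 DMSO-shared regions away from gene starts this was 1004 (44.9%). For the 185 distal regions in all 6 top lists this was 14 (7.57%), and 66 (35.7%) of them were in all 6 other lines, against 5 (0.426%) of the lost ones. The line that shared the lost regions most was A375, with 284 (24.2%), while 22RV1, RD, MV411, HCT116 and DU4475 shared 4.51% to 10.1%. Of the held distal regions A375 shared 56.2% and HCT116 75.1%. Of the 284 lost regions shared by A375, 64 (22.5%) were in none of its FHT-1015 top 50000 lists, against 13.6% of all 740 DMSO-shared distal regions that A375 shared. The same share was 43 of 119 (36.1%) in 22RV1 and 34 of 119 (28.6%) in RD. Over all DMSO-shared distal regions that these lines shared, it was 8.59% and 10.3%. In MV411, HCT116 and DU4475 it was 12 of 76 (15.8%), 13 of 68 (19.1%) and 7 of 53 (13.2%), against 3.24%, 4.45% and 4.68%. The comparison is across regions of 1 line and was not tested.

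In A375 the direction was the same. Its gene-start shares in the 1000 strongest peaks were 65.3%, 69.3% and 71.1% in DMSO and 79.9%, 75.7% and 79.6% in FHT-1015. The effect in 92-1 minus that in A375 was -3.73 percentage points (exact permutation p = 0.775, labels permuted within each line) and 8.73 without high-background sites (exact permutation p = 0.54), so a difference between the lines was not shown at this length. With 50000 and 100000 peaks it was -17.2 and -9.46 percentage points (exact permutation p = 0.02 and 0.035), lengths at which the shallow 92-1 lists hold mostly pileups of 2 reads. The share of DMSO-shared regions lost from the top lists was 11.7% of 4931 in A375, 1.18% at gene starts and 30.1% elsewhere, against 29.9%, 4.06% and 45.0% in 92-1. The difference in these shares between the lines was not tested.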

How the data were processed

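ATAC-seq peak lists of 6 samples of 92-1 were analysed, with those of the other lines for comparison. Per the submitters' processing notes, Bowtie2, Picard, MACS2, limma and HOMER were used and the build was hg38; their versions and settings were not stated. Each list is in narrowPeak form, 1 per sample, with the authors' fold enrichment (a ratio), −log10 p and −log10 q as deposited; the deposited score was not used. Peaks were ranked by −log10 p, ties by fold, q and a seeded random order. Pileup and background were solved from fold and p with a tolerance of 0.01 on −log10 p, in 100% of peaks; the background shared by most peaks is the floor. A region was 500 bp around a summit, and a list held it where one of its peaks covered 100 bp or more of it. Gene starts came from RefSeq GRCh38.p14 promoters, otherwise both gene ends were used. Tests were exact two-sided permutations over 20 assignments of 6 samples. Python 3.11.15, numpy 2.4.6, pandas 2.3.3 and scipy 1.17.1 were used. Pileup recovery, the drawing down of reads, the smallest exact p-values and the finding of planted lost regions were tested on made-up data. The other steps were not tested in this way. The genes, lists and tests were chosen with earlier results of these data known. Names were drawn from all melanocyte genes, up to 4 genes of other lists, the 12 genes with most lost and 8 with most gained regions, and the 6 best-ranked regions of each class, not all of which are printed; 1 gene is not reported here. Gene-start regions shown as sequence, the limit of 20 times the floor and the matched background were chosen after the data were seen. Regions on chromosome 8 were left out of the choice of sequences.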

Additional observations from a re-analysis of the deposited data

How the results depend on the processing

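Depth limits all counts of regions, since a shallow list misses weak sites whatever the treatment. For the gene-start share of the strongest peaks, 22 of 27 alternatives kept the direction of the 6.10 percentage points. It reversed with 500 (-4.87), 20000 (-1.52), 50000 (-6.28) and 100000 peaks (-5.19), and leaving out 1 sample gave -2.38 (without FHT-1015 replicate 1) to 12.6. With the replicate number as a block the difference stayed at 6.10 with an exact sign-flip p of 0.25, the smallest that 3 pairs allow; the overlap of top lists (0.0822) and the melanocyte loci (2.33) also had 0.25 in the block, and the difference from A375 (-3.73) had 0.75. The same number does not show that samples were paired, and the block changed no call. The overlap stayed between 0.0223 and 0.175 in all 15 alternatives, with exact permutation p of 0.1 to 0.7. The 213 lost regions became 53, 777, 3061 and 5273 with 5000, 20000, 50000 and 100000 peaks, 1238 when absence from the top 10000 was enough, 764 with an overlap of 250 bp, 537 with FHT-1015 replicate 1 alone (536 above, before regions were rebuilt from those 4 lists), and 323 to 609 with 1 sample left out. The 1 gained region became 0 with 5000 peaks, with 250 bp or without high background, 11 and 119 with 50000 and 100000 peaks, 103 by the top 10000 alone, and 1 to 29 with 1 sample left out. Melanocyte loci reversed with 1000 (-0.667), 2000 (-0.333), 50000 (-25.3) and 100000 peaks (-35). The difference from A375 was -17.2 with 50000 and -9.46 with 100000 peaks (exact permutation p of 0.02 and 0.035), 8.73 without high background, and -12.2 to 2.78 with 1 sample left out. Loss away from gene starts exceeded that at gene starts by 41.0 percentage points, and by 47.4 without high background, 49.9 with 250 bp, 49.7 in FHT-1015 replicate 1 alone, 7.95 for absence at any rank, and 35.8 to 46.5 with 1 sample left out. The causes were not tested.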
